A study of Danio rerio with 6 samples.

Results

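The 4 transcripts described here are those of gapdhs, atp1b1a, hbaa1 and apobb1, which were abundant in whole zebrafish and which the study lists as male genes. They were taken by their transcript identifiers (MSTRG.21286.1, MSTRG.8760.1, MSTRG.4430.1 and MSTRG.25558.1) as 4 of the 13927 rows of 1 table of transcript data. NGS of whole-body RNA was done on 6 zebrafish (Danio rerio) to look for genes that show the sex of a fish in the juvenile stage. The groups were adult males, adult females and juveniles (28 dpf) with 2 fish in each, all euthanised with Tricaine by the breeder and given no other treatment. Strain and adult age were not given in the sources used here, the labels give the juveniles no sex, and each library was 1 fish. The study took both juveniles to be male from their gene expression, an assumption that is not part of the labels and was not used to group the fish. The values are normalised counts, that is reads per transcript divided by a size factor for each fish.

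Gapdhs encodes a glyceraldehyde-3-phosphate dehydrogenase, an enzyme of glycolysis, the pathway by which cells break down glucose. The mammalian gene of the same name is active in sperm cells, and the study describes gapdhs by that role, while RNA of a whole fish does not show in which tissue a transcript was made. Atp1b1a encodes a beta subunit of the sodium pump, which helps the pump fold and reach the cell membrane. Hbaa1 encodes an adult alpha globin, a part of haemoglobin in red blood cells. Apobb1 encodes a form of apolipoprotein B, a structural protein of the lipoprotein particles made by liver and intestine. RNA of a whole fish is a mixture of all its organs, and in a laying female the ovary with its RNA-rich oocytes is a large part of that mixture. In such bulk samples, fewer cells of a type and less RNA per cell cannot be told apart.

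The identities carry limits. Rows of the table carry assembly identifiers and no gene names, and the names used here rest on a match of the 6 values of a row to the values printed per fish in the study. The column read here as atp1b1a, the name in the text of the study, is headed with the name of a sodium pump alpha subunit gene on the axis of the heat map, so which subunit the row stands for is uncertain. All 4 gene symbols were found in the RefSeq gene table, which also lists gapdh beside gapdhs, other alpha globins beside hbaa1 and a tandem copy beside apobb1. Reads could be split between such near-identical copies, and no other row of the members' loci was in the table. No sequences of the transcripts were used here.

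The members were not chosen independently of the sex difference. Hbaa1 and apobb1 were picked by the study from these libraries for their difference between males and females, whereas gapdhs and atp1b1a came from an earlier list of male genes. The study cites the source of that list where it describes comparing the sampled fish. That list may therefore rest on the same libraries. The table marks 47 rows for selection with 1 of 3 unexplained numbers, and gapdhs, atp1b1a and hbaa1 carry the mark 3, apobb1 the mark 2. The row of gapdhs also holds a free-text note on a high level in males and juveniles with a low one in females. Levels in the 3 groups are therefore given as a description, and where counts of calls from the fit over all rows are printed for the members, they support nothing.

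In all 4 transcripts both males were above both females, by 1.67-fold to 2.16-fold on the means, and in gapdhs, atp1b1a and hbaa1 the male mean was 0.988 to 1.02 times the juvenile mean. The share of all rows with such a gap between the sexes was not counted. As the members are listed as male genes, nothing is read from the gap. Gapdhs had 26334 and 24304 normalised counts in males, 16173 and 13282 in females and 24122 and 25901 in juveniles. The juveniles overlapped the males, and the highest female was below the lowest of the other 4 fish. The means were 25319 ± 1435 in males, 14727 ± 2044 in females and 25012 ± 1258 in juveniles (SD, n = 2 each), which puts males at 1.72 times females and 1.01 times juveniles.

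Atp1b1a had 24502 and 23207 normalised counts in males, 13056 and 9478 in females and 23059 and 23811 in juveniles. The gap between the lowest male and the highest female was 1.78-fold here, the widest of the 4 transcripts. The means were 23854 ± 915 in males, 11267 ± 2530 in females and 23435 ± 532 in juveniles (SD, n = 2 each), so that males were at 2.12 times females and 1.02 times juveniles. The females were the most uneven group, with a coefficient of variation of 22.5%, against 3.84% in males and 2.27% in juveniles.

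Hbaa1 had 21273 and 24547 normalised counts in males, 15467 and 11988 in females and 24586 and 21781 in juveniles. Males and juveniles covered nearly the same range, and both females were below it. The means were 22910 ± 2315 in males, 13727 ± 2460 in females and 23183 ± 1983 in juveniles (SD, n = 2 each), with males at 1.67 times females and 0.988 times juveniles. The lowest male was 1.38 times the highest female, the narrowest such gap among the 4.

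Apobb1 had 154533 and 80684 normalised counts in males, 55243 and 53648 in females and 140691 and 161111 in juveniles. It was the member whose males differed most, with male 1 at 1.92 times male 2, while its females lay within 1.03-fold of each other. Male 1 fell inside the juvenile range and male 2 lay between the juveniles and the females. The means were 117608 ± 52219 in males, 54445 ± 1128 in females and 150901 ± 14439 in juveniles (SD, n = 2 each). Males were thus at 2.16 times females and 0.779 times juveniles, a smaller difference from juveniles than the spread between the males.

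**Figure D1:**
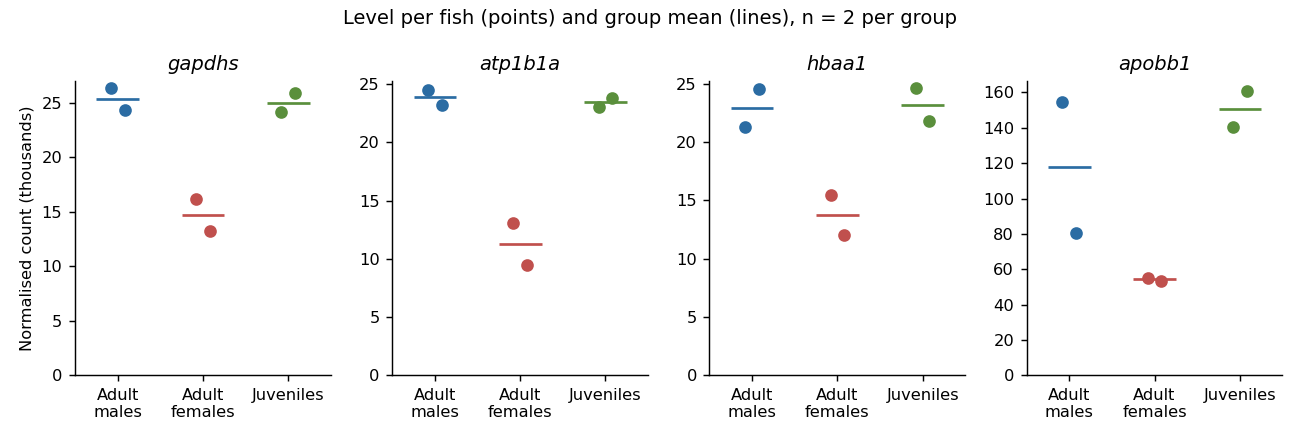
Normalised counts (vertical axes from 0, in units of 1000, a scale for each panel) of the 4 transcripts in adult males, adult females and juveniles, where points are fish and lines are means of 2 fish. Females are the lowest group in each panel, and male 2 of apobb1, at 80684, lies apart from male 1, at 154533.

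The order of the group means was the same in gapdhs and atp1b1a, with males first, juveniles next and females last, and in hbaa1 and apobb1 the juveniles came before the males. The places of males and juveniles in these orders did not differ beyond the spread between fish. Counting error played a small part in these values. Between 6725 and 174091 reads stood behind each value, for a counting error of 0.240% to 1.22%, whereas the coefficients of variation within a group ran to 44.4%. These errors cover counting only and not the making of the library.

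On log2 values, fitted with limma over the 6 fish, the difference of males over females was 0.79 ± 0.17 for gapdhs, 1.1 ± 0.19 for atp1b1a, 0.75 ± 0.19 for hbaa1 and 1.04 ± 0.34 for apobb1 (standard error). All 4 passed an adjusted p under 0.05 (Benjamini-Hochberg, limma) as higher in males, where 20.1% of the 13748 rows tested were called in that direction. Since hbaa1 and apobb1 were picked for this difference, and gapdhs and atp1b1a may have been, nothing is read from that count. The median log2 difference was 0.91 over the 4 and -0.16 over all rows tested.

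The number of members called changed with the fish in the fit, as did the share of all rows called higher in males. It was 3 of 4 without male 1 (13.1% of all rows), without male 2 (10.5%), without female 1 (14.9%), without juvenile 2 (15.2%) and without juvenile 3 (15.2%). Hbaa1 was the member not called without male 2, and apobb1 in the other 4 cases. Without female 2 it was 1 of 4, atp1b1a, beside 9.0% of all rows. Leaving out male 1 brought the difference of apobb1 to 0.57 on the log2 scale and leaving out male 2 to 1.51.

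For males over juveniles the log2 difference was 0.02 for gapdhs (95% confidence interval -0.39 to 0.43), 0.03 for atp1b1a (-0.44 to 0.49), -0.02 for hbaa1 (-0.48 to 0.44) and -0.43 for apobb1 (-1.26 to 0.40). As folds, the intervals ran from 0.762 to 1.34 for gapdhs, from 0.736 to 1.41 for atp1b1a, from 0.717 to 1.36 for hbaa1 and from 0.418 to 1.32 for apobb1. With 2 fish a group and the deposited size factors, equal levels are thus known no closer than about these bounds. The bounds do not cover the choice of scaling. With each fish scaled by its total in the table, gapdhs (0.52), atp1b1a (0.52) and hbaa1 (0.48) lay above their log2 intervals. Of the 4, 0 passed the limma threshold, 0 were at an unadjusted p under 0.05 and 0 passed in edgeR or DESeq2 on the recovered reads. In limma 34.8% of all rows passed in either direction. The study sought genes seen in juveniles and high in males or females, and the row of gapdhs alone carries a note of that pattern. Nothing is therefore read from the count of members. Without male 1, apobb1 was at -0.90 on the log2 scale and passed as lower in males, and without male 2 it was at 0.04.

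The level of females relative to juveniles is given without a test, since the rows of the table appear to have been chosen for a difference between these groups, which the methods of the study do not state. Female means were 0.589 times the juvenile mean in gapdhs, 0.481 times in atp1b1a, 0.592 times in hbaa1 and 0.361 times in apobb1. Among the 9528 rows that averaged 100 or more over the 6 fish, 77 had female and juvenile means within 1.5-fold, whereas 4368 had male and juvenile means that close. Rows with like females and juveniles were thus rare in the table.

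The size factors decide part of this picture. Other scalings, estimated on the table itself, raised the log2 difference of males over females of each row by 0.26 to 1.01 and moved that of males over juveniles by -0.08 to 0.52. The 4 members were higher in males than females under all 5 of them. Under the total of the table, gapdhs was at 1.59, atp1b1a at 1.90, hbaa1 at 1.55 and apobb1 at 1.84 on the log2 scale against females. The same scaling put gapdhs at 0.52, atp1b1a at 0.52, hbaa1 at 0.48 and apobb1 at 0.07 against juveniles. With a median of ratios, TMM or the upper quartile of the table, the first 3 genes lay between -0.098 and 0.19 against juveniles. How close their males were to the juveniles thus depended on the scaling, and as a share of the table reads their males had 1.40 to 1.44 times the juvenile level.

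The calls over all rows moved with the scaling too. Of the rows called between males and females, 33.2% were higher in males with the deposited factors, 53.3% with a median of ratios on the table, 53.0% with TMM, 65.4% with the upper quartile and 59.7% with the total. Of those called between males and juveniles, 46.5% were higher in males with the deposited factors and 75.2% with the total of the table.

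**Figure D2:**
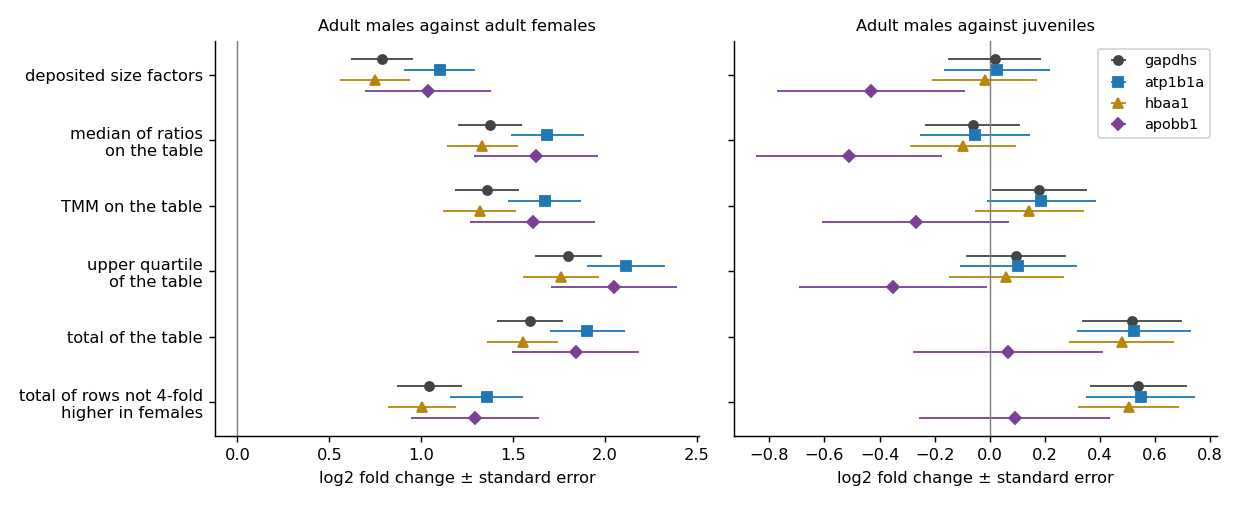
Log2 fold change ± standard error (horizontal axes) of the 4 transcripts in limma fits over 6 fish, with 1 line of symbols for each way of scaling the fish, for adult males against adult females on the left and adult males against juveniles on the right. All symbols on the left are above 0, and with deposited size factors gapdhs, atp1b1a and hbaa1 lie within 0.03 of 0 on the right.

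Ratios between the members within a fish need no size factor. Normalised counts were not divided by transcript length, so a ratio between 2 genes says nothing of their relative amounts, and only its change between fish can be read. If a single factor had scaled all 4 transcripts in a fish, their ratios would be the same in all fish up to error. The log2 ratio of gapdhs to atp1b1a was 0.10 and 0.07 in males, 0.31 and 0.49 in females and 0.07 and 0.12 in juveniles. Males and juveniles overlapped within a narrow span, and both females lay above it.

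The log2 ratio of atp1b1a to hbaa1 was 0.20 and -0.08 in males, -0.24 and -0.34 in females and -0.09 and 0.13 in juveniles. Here both females lay below the other 4 fish. The log2 ratio of gapdhs to hbaa1 was 0.31 and -0.01 in males, 0.06 and 0.15 in females and -0.03 and 0.25 in juveniles, with the females inside the range of the others. Atp1b1a, the sodium pump transcript, was thus low in females relative to both gapdhs and hbaa1.

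In the 3 ratios to apobb1 the males were far apart, and females and juveniles differed too. The log2 ratio of gapdhs to apobb1 was -2.55 and -1.73 in males, -1.77 and -2.01 in females and -2.54 and -2.64 in juveniles. That of atp1b1a to apobb1 was -2.66 and -1.80 in males, -2.08 and -2.5 in females and -2.61 and -2.76 in juveniles. That of hbaa1 to apobb1 was -2.86 and -1.72 in males, -1.84 and -2.16 in females and -2.52 and -2.89 in juveniles. In each of the 3, male 1 was near the juveniles and male 2 was the highest of the 6 fish, so that the groups of adults overlapped. Both females lay above both juveniles in each of the 3, so apobb1 was lower in females than in juveniles also relative to the other members. How often this holds for other pairs of rows was not counted.

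The mean log2 ratio of males minus that of females was -0.31 for gapdhs to atp1b1a, 0.35 for atp1b1a to hbaa1 and 0.04 for gapdhs to hbaa1. For the ratios to apobb1 it was -0.25 with gapdhs, 0.06 with atp1b1a and -0.29 with hbaa1. Of the 6 pairs, 2 had both females outside the other 4 fish. Both of these pairs include atp1b1a, so they are not separate observations. How often this holds for other pairs of abundant rows was not counted, so it is a description only. A two-sided exact permutation test of 2 fish against 2 cannot give a p below 0.333, and over the 12 tests (6 pairs against females and against juveniles) the smallest adjusted p was 1. This test could not have passed for any size of difference, and it says neither that the ratios changed with sex nor that they were equal. As a description, the difference between males and females for gapdhs to atp1b1a was -0.31 beside a standard deviation within the groups of 0.091, and that for atp1b1a to hbaa1 was 0.35 beside 0.15. For the other 4 pairs the difference was smaller than the standard deviation within the groups.

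**Figure D3:**
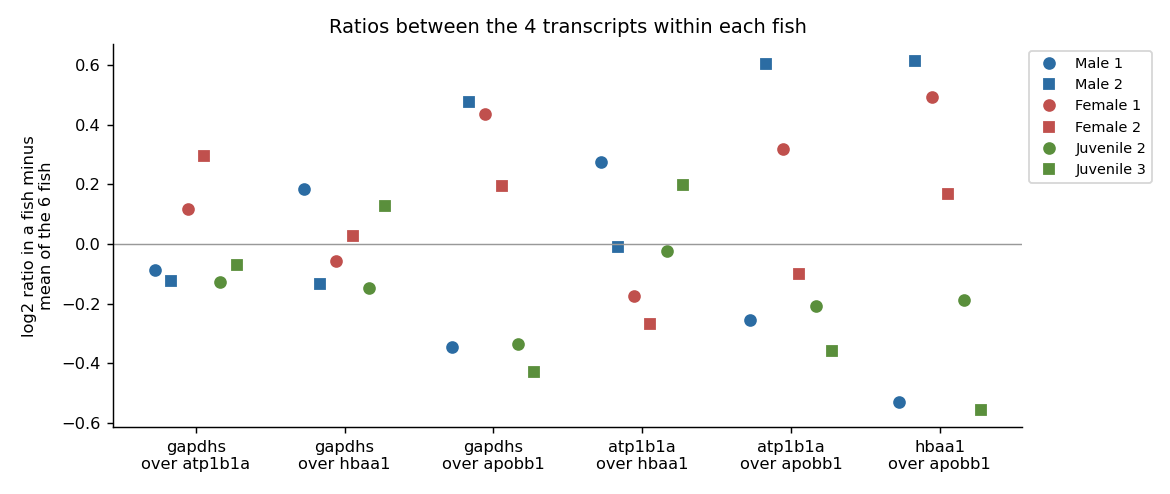
Log2 ratio between 2 members in a fish minus the mean of that ratio over the 6 fish (vertical axis) for the 6 pairs of members, with males, females and juveniles from left to right in each pair and circles and squares for the fish of a group. Both females lie apart from the other 4 fish for gapdhs over atp1b1a and for atp1b1a over hbaa1, and male 2 is the highest point of the 3 pairs with apobb1.

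By mean count of the 6 fish, apobb1 was row 9, gapdhs row 62, hbaa1 row 72 and atp1b1a row 75 of 13927, on counts that are not per length. Ranks within a fish need no size factor either. Gapdhs held rank 40 in both males, ranks 162 and 229 in females and ranks 57 and 48 in juveniles. Atp1b1a was at rank 42 in both males, 223 and 384 in females and 60 and 54 in juveniles. These genes stood a little higher among the rows in males than in juveniles and much lower in females, where female 2 had the lowest places.

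Hbaa1 held ranks 56 and 37 in males, 175 and 270 in females and 53 and 59 in juveniles. Apobb1 was at ranks 3 and 11 in males, 19 and 26 in females and 12 and 10 in juveniles. Apobb1 lost few places in females, and no rank of a female overlapped with a rank of the other groups in any of the 4. How often this holds over all rows was not counted, so it is a description only.

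**Figure D4:**
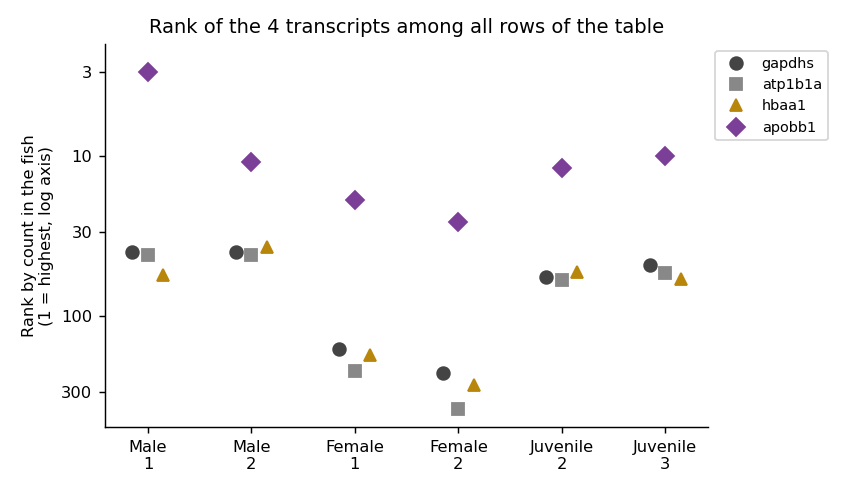
Rank by count of the 4 transcripts among the 13927 rows in each fish (vertical axis, log scale, with rank 1 at the top), for males, females and juveniles from left to right. Gapdhs, atp1b1a and hbaa1 lie between ranks 37 and 60 in males and juveniles and between 162 and 384 in females.

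The rows that passed the members in females were counted. For gapdhs, 122 rows were above it in both females and below it in both males, and 65 of them were at least 4-fold higher in females than in males. The numbers were 180 and 85 for atp1b1a, 130 and 67 for hbaa1, and 11 and 9 for apobb1. The other way round there was 1 row for gapdhs and 0 for each of the other 3 members. This imbalance was in part fixed beforehand, since the members are listed as male genes, and nothing is read from it. Rows overtaking a member in females were thus in part, but not all, rows of strong female excess.

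Transcripts used as ovary markers were set beside the member levels, and they were high in females, where the members were low. The study lists all 8 as female genes, and they were chosen with earlier results of these data known. Nothing is therefore read from their female excess. Female genes of the study with a smaller reported excess, foxl2a and lhcgr among them, were not in the set. The summed level of the 8 ovary markers (bmp15, gdf9, ccnb1, kpna2, rdh10b, cyp17a1, cyp19a1a and igf3) was 2859 and 2754 normalised counts in males, 122721 and 160662 in females and 2768 and 2479 in juveniles. This sum mostly follows ccnb1, kpna2 and rdh10b, with female means of 67632, 34155 and 23485. Single markers differed between males and juveniles in either direction, with means of 171 and 21.4 for cyp17a1 and of 1234 and 1519 for kpna2. The study places cyp17a1 in Leydig cells, brain and gonad, so not all 8 are particular to the ovary. Of the 8, cyp19a1a, the ovarian aromatase that makes oestrogen, was listed at 0 in both males and in 1 juvenile, and none was at 0 in a female. The female values of cyp19a1a rest on only 18 and 22 reads. The oocyte growth factor genes bmp15 and gdf9 had 5940 and 7429 (bmp15) and 3021 and 3705 (gdf9) normalised counts in females. The row of the yolk precursor gene vtg1, a mark of the liver of a laying female, had 51.1 and 70.5 normalised counts in females and was listed at 0 in males and juveniles. It is 1 assembled transcript on 44 and 50 reads in females, so it does not give the level of the whole gene.

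The 3199 rows at least 4-fold higher in females than in males held 6.83% and 6.57% of the table reads in males, 35.3% and 37.1% in females and 4.93% and 5.29% in juveniles. Female 2 had the higher share and the higher marker sum of the females. It was the lower female in all 4 members, in apobb1 by only 1.03-fold. The 3199 rows were picked by the ratio in the same fish, and more reads in them leave a smaller share for all others. Nothing is read from this match in 2 fish. The 4 members together took 1.82% and 1.20% of the table reads in males, 0.467% and 0.393% in females and 1.16% and 1.35% in juveniles. The part of ovary RNA in the member levels was not tested. With the fish scaled by the total of the other rows, those not 4-fold higher in females, males over females was at 1.04 for gapdhs, 1.36 for atp1b1a, 1.00 for hbaa1 and 1.29 for apobb1 on the log2 scale. In each member this was less than with the total of all rows of the table and more than with the deposited size factors. This scaling was chosen after the values were seen, its rows were picked by the ratio of males to females, and it shifts all rows by the same amount.

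A male excess of this size was shared with some other abundant rows. Of the 520 rows that averaged 5000 or more over the 6 fish, 175 (33.7%) were higher in males than females and 90 were between 1.5-fold and 2.5-fold higher. The ratio of males to females had a median of 0.569 over the 520 rows and was lower than that of gapdhs in 82.5% of them. The share was 90.2% for atp1b1a, 81.3% for hbaa1 and 90.6% for apobb1, so that between 47 and 95 abundant rows exceeded each member. The members were in the upper part of the abundant rows and not at its end. As they are listed as male genes, a high place was in part fixed beforehand and nothing is read from it.

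Equal males and juveniles were common among the abundant rows. In 160 of the 520 rows the lower of the male and juvenile means was at least 80% of the higher, and 137 of these were lower and 23 higher in males than females. The male excess in the 23 ran from 1.51-fold to 3.77-fold with a median of 1.98. Rows of the table appear to have been chosen for a difference between females and juveniles. Among the 520, any row with juveniles above females had a gap of at least 1.41-fold. The lower end of this male excess and the counts of such rows were thus in part set by that choice. Both properties together, a male excess of 1.5-fold to 2.5-fold with male and juvenile means that close, were found in 18 of the 520 rows. Gapdhs, atp1b1a and hbaa1 were among them but not apobb1. The members are listed as male genes and these limits lie around the values of gapdhs, atp1b1a and hbaa1. Nothing is therefore read from their being among the 18. Without female 1 or without female 2, only 2 of the members were among such rows, and with the total of the table as scaling there were 4 such rows and 0 members.

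**Figure D5:**
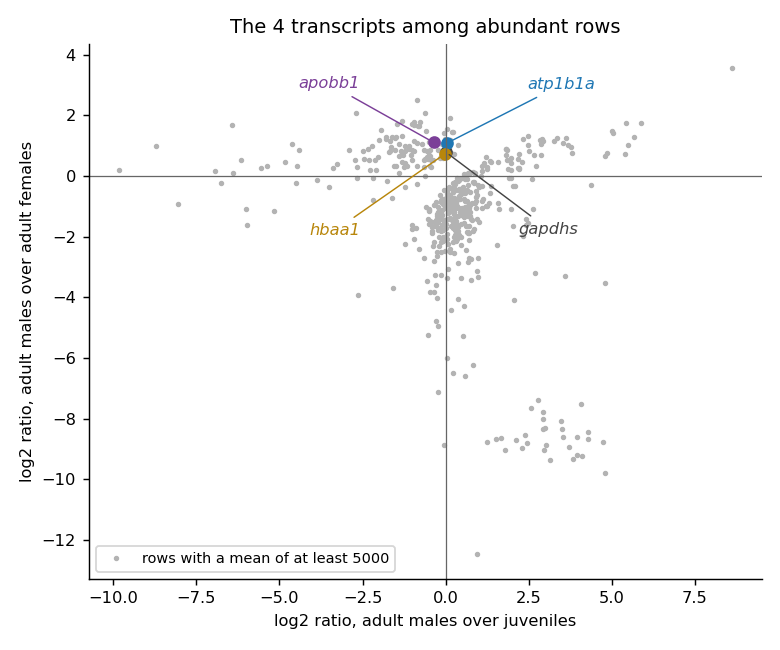
Log2 ratio of group means, adult males over adult females (vertical axis) against adult males over juveniles (horizontal axis), for 519 of the 520 rows averaging 5000 or more normalised counts, 1 being left out because its ratio to juveniles has no finite log. Gapdhs, atp1b1a and hbaa1 lie beside the line of equal males and juveniles, above most rows on that line, and apobb1 lies to its left.

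The fish within a group were compared in the members and in other abundant rows. In the 175 abundant rows higher in males, the median of female 1 over female 2 was 1.18 and female 1 was the higher in 129. Among the members the same ratio was 1.22 for gapdhs, 1.38 for atp1b1a, 1.29 for hbaa1 and 1.03 for apobb1. The median of male 1 over male 2 in these rows was 1.02, and the members had 1.08 for gapdhs, 1.06 for atp1b1a, 0.867 for hbaa1 and 1.92 for apobb1. In its males apobb1 was thus farther from the median of these rows than the other 3 were. The spread of this ratio over the rows was not computed. Juvenile 2 over juvenile 3, by the numbers in the table, was 0.931 for gapdhs, 0.968 for atp1b1a, 1.13 for hbaa1 and 0.873 for apobb1.

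Rows most like each member were sought by the distance between log2 profiles of the 6 fish, after taking out each row's mean, among the 3296 other rows that averaged 1000 or more. The distances between members were 0.31 for gapdhs and hbaa1, 0.38 for gapdhs and atp1b1a and 0.47 for atp1b1a and hbaa1. Apobb1 was farther off, at 0.84 to 1.13 from the other 3. Within a distance of 0.5 there were 60 rows for gapdhs, 40 for atp1b1a, 49 for hbaa1 and 4 for apobb1.

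The nearest row to gapdhs was MSTRG.800.1 at a distance of 0.131, with 2610 and 2185 normalised counts in males, 1595 and 1321 in females and 2290 and 2576 in juveniles. That of hbaa1 was MSTRG.16160.1 at 0.187, with 18289 and 19391 normalised counts in males, 13513 and 11303 in females and 21672 and 18365 in juveniles. Neither identifier is paired with a gene name here. Profiles like those of the first 3 members were therefore shared with some of the 3296 rows searched, and fewer rows lay as close to apobb1. The usual number of such neighbours of a row was not counted, so whether these numbers are high or low is not known. The males of apobb1 differed by 1.92-fold, and the part of this gap in its distances was not tested. The row nearest to apobb1, at a distance of 0.277, also had males far apart, at 3486 and 1551 normalised counts. It had 1239 and 1319 in females and 3370 and 3544 in juveniles. As that row was picked for its likeness, it does not show how common such a gap is.

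Sox9a and fkbp5 are also listed as male genes by the study. Sox9a, a transcription factor gene of testis and cartilage, had 875 and 634 normalised counts in males, 283 and 400 in females and 1084 and 1059 in juveniles. Like the members it was higher in both males than in both females, and its juveniles were above the males, with males over juveniles at -0.52 ± 0.25 on the log2 scale (standard error) beside -0.43 ± 0.34 in apobb1. Fkbp5, whose protein is a co-chaperone that acts on receptors of steroid hormones, had 43027 and 30897 normalised counts in males, 13753 and 12559 in females and 765 and 1520 in juveniles. Its juveniles were thus the lowest group, and in males over juveniles it was at 5.08 ± 0.34 on the log2 scale (standard error), against values between -0.43 and 0.03 in the 4 members.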

How the data were processed

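RNA of 6 whole fish was sequenced, and per the labels and the study's methods the authors used HISAT2 2.1.0 for alignment to GRCz11, StringTie 1.3.4 for assembly, featureCounts 1.6.3 for counting and DESeq2 2.11.40.2 for scaling. The deposited signal values are read counts per assembled transcript divided by a size factor per fish. All of the values were whole multiples of 1 read within 0.01 (100% in each fish), which gave 13980849 to 18635087 reads per fish in the table. The table is part of each library, so this is not its depth, and 3 reads are 2.40 to 4.23 normalised counts. Columns with the authors' own comparison (mean, fold change, error, statistic and p-values), a difference of means, marks and notes were not used for any value. The juvenile columns are numbered 2 and 3, so they could be assigned to the group and not to a label.

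limma 3.58.1 (R 4.3.3) with a trend was fitted on log2(normalised count + 1), all 6 fish in 3 groups, for the 13748 of 13927 rows that reached 10 normalised counts in 2 or more fish. Benjamini-Hochberg adjusted p under 0.05 was the threshold. Fold changes are on this log2 scale, and ratios of means were taken without the pseudocount. On recovered reads, edgeR 4.0.16 called 7988 rows between males and females and 4565 between males and juveniles, and limma 8325 and 4789. Alternatives were other scalings and filters, DESeq2 1.42.0 and edgeR on reads, a pseudocount of 10, fits with 2 groups, a replicate block and leaving out each fish. Scripts were tested on simulated data. Tables were read with pandas 2.3.3 in Python 3.11.15, and numpy 2.4.6, scipy 1.17.1 and matplotlib 3.10.9 were used. The members, markers and lists were chosen with earlier results of these data known. The genes named were the 4 members, sox9a, fkbp5, the markers and the row nearest to a member, with 2 identifiers printed. Gene symbols were looked up in a RefSeq table of another assembly, whose coordinates were not used.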

Additional observations from a re-analysis of the deposited data

How the results depend on the processing

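Males stayed higher than females in all 4 members under every alternative run, and 62 of the 72 values kept their side of the threshold. Of those that did not, hbaa1 was at 0.75 with the replicate block and apobb1 at 1.04 in the fit of only the 2 groups. The others left out a fish, with log2 ranges of 0.65 to 0.93 for gapdhs, 0.56 to 0.93 for hbaa1 and 0.57 to 1.51 for apobb1. Rows called between males and females numbered 2711 with a minimum mean of 1000 and 5440 to 7439 without a fish. Under the replicate block there were 6661. Adult replicate numbers share only a number (r = -0.04 across transcripts), and no block could be fitted with juveniles.

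Males against juveniles changed sign in several settings, and none of the values that did passed the threshold. A median of ratios gave -0.062 for gapdhs and -0.054 for atp1b1a. Hbaa1 was at 0.14 with TMM, 0.060 with the upper quartile, 0.48 with the total of the table and 0.50 with the total of rows not 4-fold higher in females, the last a scaling chosen after seeing the data. These totals gave 0.067 and 0.091 for apobb1. Without a fish, values ran from -0.040 to 0.075 for gapdhs, -0.014 to 0.064 for atp1b1a, -0.12 to 0.085 for hbaa1 and -0.90 to 0.038 for apobb1. Rows called numbered 1257 with a minimum mean of 1000 and 1603 to 3765 without a fish.

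Rows with a male excess of 1.5-fold to 2.5-fold and male and juvenile means as close as in the report were counted again. They numbered 96 of 3297 with a minimum mean of 1000 and 5 of 70 with 20000 (where atp1b1a and hbaa1 drop out). Of the 520 rows averaging 5000 or more, there were 4 with the total of the table and 14 to 21 without a fish. At the minimum of 20000, 71.4% of rows had a lower ratio of males to females than gapdhs. With 2 fish a group, the number of fish and the choice of scaling, and not read depth, limit these values.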
